A study of Mus musculus with 6 samples.

Results

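The immunity-related GTPases (IRGs) are interferon-inducible proteins of the host cell. The members were taken by symbol from the row names of the deposited gene count table: Irgm1, Irgm2, Igtp (also called Irgm3), Iigp1 (Irga6), Tgtp1, Tgtp2 (Irgb6) and Ifi47 (Irgd), together with Gvin1, a very large inducible GTPase that is a more distant relative. These are 8 of the 46095 rows of the table, the rule uses no measured value, and all 8 passed the filter on low counts. RNA-seq was done on bone marrow-derived macrophages of Cd226-/- mice (3 libraries) and wild-type (WT) mice (3 libraries), all C57BL/6 and 56 days old. Cd226 encodes an activating receptor known from T cells and natural killer cells, and the labels do not say how the allele was made. Bone marrow cells of both genotypes were grown for 7 days with 20 ng/ml M-CSF, the growth factor that gives macrophages. Both genotypes were then treated for 24 h with 20 ng/ml IFN-γ plus 100 ng/ml LPS before total RNA was taken. No unstimulated library is among the 6, so the values describe IRG expression under IFN-γ and LPS and give no induction. The labels do not say whether the 3 libraries of a genotype came from separate mice or cultures, so each p-value covers only the spread among the libraries at hand, which may be technical.

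In mice, IFN-γ binds its receptor and signals through the JAK kinases to gamma-activated sites (GAS) in the promoters of IRG and guanylate-binding protein genes, while interferon regulatory factors such as IRF1 bind interferon-stimulated response elements (ISRE). The effector IRGs coat and break the vacuoles of parasites and bacteria such as Toxoplasma gondii and Chlamydia trachomatis. The regulatory IRGM proteins (Irgm1, Irgm2 and Igtp) sit on the cell's own membranes and hold the effectors in their inactive form there, and autophagy-related proteins are needed for the effectors to reach the vacuole.

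The 6 libraries held 16838527 to 21658061 counts, Cd226-/- replicates 2 and 3 were closer to each other than either was to replicate 1 (chi-square per degree of freedom 2.17, against 7.61 and 7.76), and the common biological coefficient of variation was 6.75%. Cd226 itself had 11, 10 and 8 counts in the Cd226-/- libraries, against 5, 17 and 23 in the WT libraries. The genotypes overlapped, so the row does not check the labels (edgeR log2 fold change -0.50, adjusted p = 0.480). Levels are given in CPM, counts scaled to the library total corrected by the trimmed mean of M-values (TMM). All 8 macrophage markers were present and summed to 19190 to 19980 CPM in Cd226-/- libraries and 17910 to 19880 CPM in WT libraries. Of these 8, 4 were higher in Cd226-/- macrophages (among them Cd68 and Mertk) and 3 were lower (among them Cd14). That is 87.5% called, beside 30.9% of all tested genes. Of the markers of other cells, 0 of 8 tested T and natural killer cell markers and 0 of 2 tested neutrophil markers were called, and 1 of 4 tested dendritic cell markers was higher (Ccr7). B cell markers summed to 30.0 to 39.3 CPM in Cd226-/- libraries and 12.1 to 15.1 CPM in WT libraries (5 of 5 tested higher, Ighm at 0). Fibroblast markers summed to 760 to 792 CPM in Cd226-/- libraries and 494 to 573 CPM in WT libraries (4 of 5 tested higher). These marker levels moved with genotype beside every difference given here, and their part in it was not tested. In bulk RNA, fewer cells of a type and less RNA per cell cannot be told apart.

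The promoters are shown because GAS and ISRE are the elements through which IFN-γ is known to reach such genes, and because neighbouring rows of the family were called in different directions. RefSeq windows (GRCm38.p6, 250 bases before to 50 after the annotated start, 5′ to 3′ on the gene's strand) are given for 6 members, all on chromosome 11. Those of 2 neighbouring IRG rows, Gm12185 (called higher) and Gm5431 (called lower), are given beside them. Of the other members, Gvin1 had no window and Iigp1 was left out, as were the IRG rows next to Iigp1. The counts of member windows below therefore do not cover these rows. They were searched on both strands for GAS (TTCNNNGAA) and ISRE (GAAA, any 2 bases, GAAA), and the capitals mark the matches.
Irgm1, chr11:48871371-48871670, minus strand: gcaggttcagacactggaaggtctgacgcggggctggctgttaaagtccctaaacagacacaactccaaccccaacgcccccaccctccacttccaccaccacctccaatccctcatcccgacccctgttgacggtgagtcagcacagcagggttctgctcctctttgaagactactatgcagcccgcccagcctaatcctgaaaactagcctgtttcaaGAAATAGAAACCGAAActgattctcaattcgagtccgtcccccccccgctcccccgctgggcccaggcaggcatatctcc
Irgm2, chr11:58214727-58215026, plus strand: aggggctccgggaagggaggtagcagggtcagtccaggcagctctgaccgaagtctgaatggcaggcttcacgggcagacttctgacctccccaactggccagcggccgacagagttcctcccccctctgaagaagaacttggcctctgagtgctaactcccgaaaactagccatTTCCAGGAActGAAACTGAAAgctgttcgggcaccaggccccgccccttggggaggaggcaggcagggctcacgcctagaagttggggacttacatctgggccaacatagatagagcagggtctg
Igtp, chr11:58199306-58199605, plus strand: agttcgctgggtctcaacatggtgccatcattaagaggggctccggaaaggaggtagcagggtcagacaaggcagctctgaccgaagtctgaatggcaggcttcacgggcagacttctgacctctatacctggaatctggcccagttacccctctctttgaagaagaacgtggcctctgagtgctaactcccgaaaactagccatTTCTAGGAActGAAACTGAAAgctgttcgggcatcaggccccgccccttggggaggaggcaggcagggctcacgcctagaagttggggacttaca
Tgtp1, chr11:48992197-48992496, minus strand: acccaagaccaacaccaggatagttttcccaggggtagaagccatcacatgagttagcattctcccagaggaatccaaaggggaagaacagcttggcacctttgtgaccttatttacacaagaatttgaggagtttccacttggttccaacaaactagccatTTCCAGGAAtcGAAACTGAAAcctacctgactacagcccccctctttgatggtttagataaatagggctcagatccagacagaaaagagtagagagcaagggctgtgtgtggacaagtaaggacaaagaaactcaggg
Tgtp2, chr11:49064163-49064462, minus strand: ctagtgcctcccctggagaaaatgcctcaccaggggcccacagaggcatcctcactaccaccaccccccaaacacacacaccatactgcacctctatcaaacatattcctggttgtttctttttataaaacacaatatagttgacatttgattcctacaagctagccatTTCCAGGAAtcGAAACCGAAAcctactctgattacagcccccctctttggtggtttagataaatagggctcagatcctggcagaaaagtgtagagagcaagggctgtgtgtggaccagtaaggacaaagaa
Ifi47, chr11:49076337-49076636, plus strand: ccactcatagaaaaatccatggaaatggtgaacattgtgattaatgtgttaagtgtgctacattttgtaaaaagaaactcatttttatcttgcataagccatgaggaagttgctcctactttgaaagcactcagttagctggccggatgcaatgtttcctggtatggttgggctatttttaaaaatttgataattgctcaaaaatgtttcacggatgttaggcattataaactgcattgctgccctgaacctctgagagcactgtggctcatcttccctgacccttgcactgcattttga
Gm12185, chr11:48927133-48927432, minus strand: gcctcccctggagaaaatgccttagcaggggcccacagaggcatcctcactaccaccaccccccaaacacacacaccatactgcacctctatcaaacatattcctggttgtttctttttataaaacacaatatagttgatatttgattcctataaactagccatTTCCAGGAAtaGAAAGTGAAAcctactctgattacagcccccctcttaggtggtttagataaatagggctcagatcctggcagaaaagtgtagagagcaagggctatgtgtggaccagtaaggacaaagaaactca
Gm5431, chr11:48902103-48902402, minus strand: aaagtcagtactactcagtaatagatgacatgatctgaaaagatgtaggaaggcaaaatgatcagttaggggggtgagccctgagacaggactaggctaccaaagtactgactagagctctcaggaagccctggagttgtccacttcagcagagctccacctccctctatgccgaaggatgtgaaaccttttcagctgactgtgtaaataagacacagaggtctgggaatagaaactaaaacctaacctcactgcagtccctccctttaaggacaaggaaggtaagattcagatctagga
Of the 6 member windows, 4 held GAS and 5 held ISRE, and the 4 with GAS held both. Over all 32851 RefSeq windows of the same length, 8.3% held GAS, 3.44% held ISRE and 0.454% held both. In Irgm2, Igtp, Tgtp1, Tgtp2 and Gm12185 the pair had the same layout, GAS first, then 2 bases, then ISRE. These windows are partly alike, with 71.3% identity between Irgm2 and Igtp and 68.0% between Tgtp1 and Tgtp2. The Gm12185 window also shares long runs of letters with that of Tgtp2. The matches are therefore not separate cases to set against the share over all windows. GAS began 75 bases before the start in Irgm2, 45 in Igtp, 88 in Tgtp1, 81 in Tgtp2 and 86 in Gm12185. The Irgm1 window held 2 ISRE matches that overlap each other, 30 and 24 bases before the start, and no GAS. The Ifi47 and Gm5431 windows held neither. Of the other IRG rows whose windows were kept, Gm12250 held GAS at 61 bases before the start. Its ISRE matches, on the other strand, lay at 91 and 46 bases before the start, which is another layout. The 9930111J21Rik1 window held 1 ISRE match, after the start, and no GAS, and the 9930111J21Rik2 window held neither. The 9930111J21Rik2 window, however, ends within the same letters (ggtctggaaatag) that begin the match in 9930111J21Rik1. This difference thus rests on where the window ends. A match describes the letters of a window, and the absence of one says nothing about factor binding.

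Of the 8 members, 1 was called higher in Cd226-/- macrophages (Tgtp1), 1 was called lower (Gvin1) and 6 were not called (edgeR quasi-likelihood test, Benjamini-Hochberg adjusted p under 0.05 over all 13215 tested genes). Genotype was called for 30.9% of all tested genes, 16.1% higher and 14.8% lower, so 2 of 8 members (25.0%) is a share near the background. The median log2 fold change was 0.10 over the members and -0.0045 over all tested genes. The values of the 2 genotypes did not overlap for 3 members (Irgm2, Tgtp1 and Gvin1), beside 44.4% of all tested genes. Without Cd226-/- replicate 1, 3 members were called. It was 1 member (Tgtp1) without Cd226-/- replicate 2, without Cd226-/- replicate 3 or without WT replicate 1. Together the members took 0.374%, 0.402% and 0.396% of all counts in Cd226-/- replicates 1 to 3, against 0.382%, 0.327% and 0.394% in WT replicates 1 to 3. The genotypes overlapped in this share of unscaled counts, and WT replicate 2 was the lowest library. In TMM-scaled CPM the member sums did not overlap (3882 to 4070 in Cd226-/- libraries and 3213 to 3859 in WT libraries). Whether the genotypes overlap in the sum thus depended on the scaling.

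**Figure D1:**
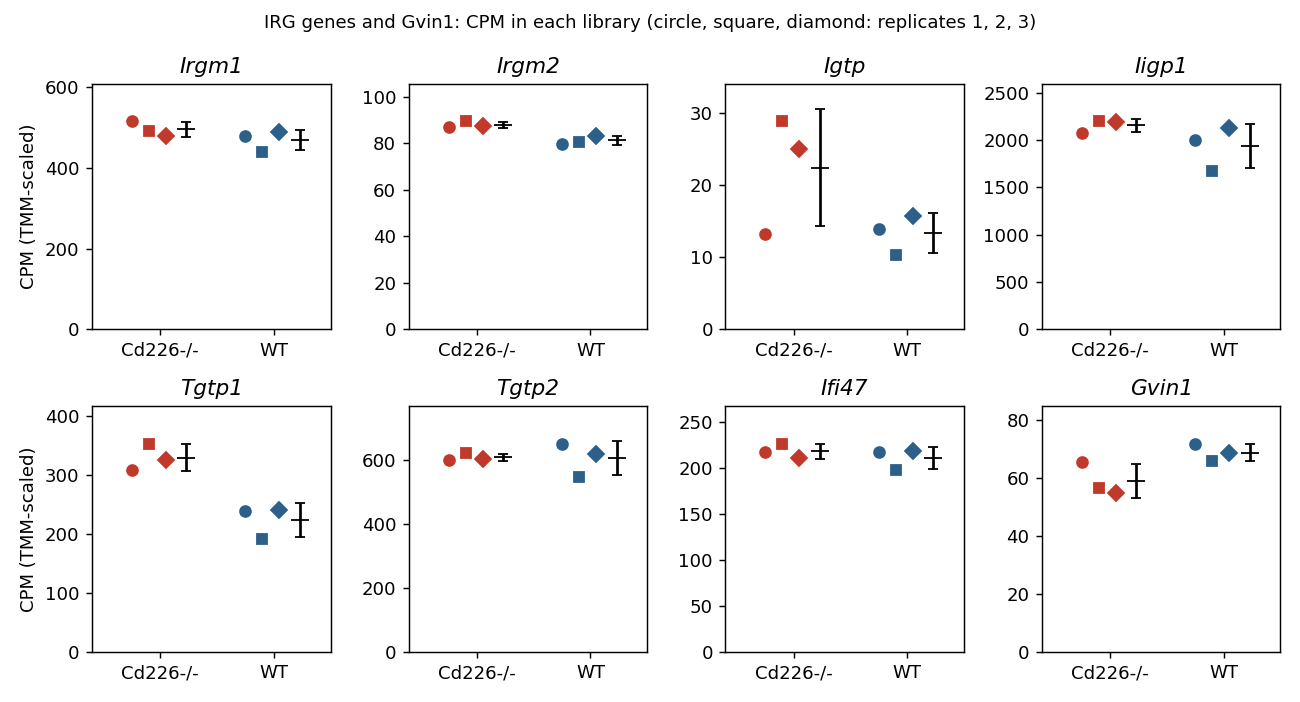
CPM scaled by the trimmed mean of M-values (TMM; vertical axes from 0) of the 8 members in each Cd226-/- (left, red) and WT (right, blue) library, with mean and SD beside the points (n = 3 each). Tgtp1 is higher in all 3 Cd226-/- libraries (308 to 353 CPM) than in the WT libraries (190 to 241 CPM), and Cd226-/- replicate 1 of Igtp (13.3 CPM) lies among the WT values.

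None of the 3 regulators was called, although Igtp had the highest estimate among the members. Irgm1, whose loss in mice is known for poor control of mycobacteria and disturbed autophagy, lies at chr11:48861968-48871683 (minus strand, GRCm38). It had 516, 491 and 480 CPM in Cd226-/- replicates 1 to 3, against 479, 440 and 488 CPM in WT replicates 1 to 3. The ranges met between 480 and 488 CPM, and WT replicate 2 was the lowest. The log2 fold change was 0.08 (SE 0.052, 95% interval -0.03 to 0.19, edgeR adjusted p = 0.261). Irgm2, a regulator found on the Golgi, lies at chr11:58199618-58222782 (plus strand). It had 86.7, 89.5 and 87.3 CPM in the Cd226-/- libraries, against 79.8, 80.5 and 83.2 CPM in the WT libraries. All Cd226-/- values exceeded all WT values by a small margin. The log2 fold change of 0.11 (SE 0.053, 95% interval 0.0035 to 0.22) did not pass after adjustment (edgeR adjusted p = 0.110).

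Igtp, the regulator on the endoplasmic reticulum and lipid droplets, was the most variable member. It lies at chr11:58199556-58207591 (plus strand), overlapping the GENCODE extent of Irgm2 on the same strand, and 8.01% of its exonic bases (162 of 2022) overlap Irgm2 exons. It had 241, 482 and 460 counts in Cd226-/- replicates 1 to 3 (13.3, 28.9 and 25.0 CPM), against 255, 177 and 349 counts in WT replicates 1 to 3 (14.0, 10.3 and 15.8 CPM). Cd226-/- replicates 2 and 3 stood above every WT library, while Cd226-/- replicate 1 fell below WT replicates 1 and 3. The log2 fold change was 0.73 with a wide interval (SE 0.36, 95% interval -0.23 to 1.70, edgeR adjusted p = 0.212). Without Cd226-/- replicate 1 it was 1.00 and passed (edgeR adjusted p = 2.26e-05), and limma-voom on all libraries also called it (0.66, adjusted p = 0.0409). Of the 50-base words of its longest transcript, 12.3% also occur in Irgm2. With the Igtp and Irgm2 rows summed, a sum chosen after the data were seen, the log2 fold change was 0.22 (SE 0.061, edgeR adjusted p = 0.00848). Igtp took 13.3%, 24.4% and 22.3% of that sum in Cd226-/- libraries and 14.9%, 11.4% and 15.9% in WT libraries, and these shares overlapped (exact permutation test, two-sided p = 0.3, smallest possible 0.1).

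Among the effectors, Iigp1 was by far the most abundant and Tgtp1 was the one called. Iigp1, the GTPase that builds up on Toxoplasma vacuoles in mouse cells, lies at chr18:60376027-60392634 (plus strand), on the chromosome of Cd226 but 28.8 Mb from it. It had 2074, 2202 and 2192 CPM in Cd226-/- replicates 1 to 3, against 2007, 1679 and 2126 CPM in WT replicates 1 to 3. WT replicate 3 exceeded Cd226-/- replicate 1, so the genotypes overlapped. The log2 fold change was 0.15 (SE 0.071, 95% interval 0.0027 to 0.31, edgeR adjusted p = 0.116). The call depended on the setting, with edgeR adjusted p = 0.0307 without WT replicate 3 and 0.0293 without the filter on low counts. Iigp1 alone made up 53.4% to 55.1% of all member counts in Cd226-/- libraries and 52.3% to 55.1% in WT libraries.

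Tgtp1 encodes an IRGB6-type effector GTPase first described in T cells, and its row gave the clearest change among the members. The gene lies at chr11:48985327-48994172 (minus strand). It had 5592, 5890 and 5973 counts in Cd226-/- replicates 1 to 3 (308, 353 and 325 CPM), against 4352, 3262 and 5323 counts in WT replicates 1 to 3 (238, 190 and 241 CPM). Every Cd226-/- library was above every WT library, and WT replicate 2 was the lowest of the 6. Tgtp1 averaged 329 ± 22.6 CPM in Cd226-/- macrophages and 223 ± 28.3 CPM in WT macrophages (SD, n = 3 each), 1.47-fold higher (log2 fold change 0.56, SE 0.090, edgeR adjusted p = 0.00122). It was called in the same direction under every alternative run, with log2 fold changes of 0.45 to 0.61 when each library was left out.

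Tgtp2, the near-identical copy of Tgtp1, was not called. It lies 71.9 kb from Tgtp1 at chr11:49057194-49064206 (minus strand). It had 601, 622 and 604 CPM in the Cd226-/- libraries, against 653, 548 and 619 CPM in the WT libraries. The Cd226-/- values lay inside the WT range. The log2 fold change was 0.0058 (SE 0.057, 95% interval -0.11 to 0.12, edgeR adjusted p = 0.951), and its sign turned under scaling by library size alone (-0.05). The longest GENCODE transcripts of the pair (2823 and 2810 bases) are 99.3% identical, with 19 differences, and 89.4% of the 50-base words of Tgtp1 also occur in Tgtp2. How the authors' counting split reads that match both is not given in the sources used here, so the division between these 2 rows is uncertain. Summed, they gave a log2 fold change of 0.18 (SE 0.061, edgeR adjusted p = 0.0326), smaller than that of Tgtp1 alone. Their promoter windows are less alike than their transcripts, at 68.0% identity, though both hold the GAS and ISRE pair.

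The share of the pair that fell to Tgtp1 does not depend on library scaling. It was 33.9%, 36.2% and 35.0% in Cd226-/- replicates 1 to 3, against 26.7%, 25.8% and 28.0% in WT replicates 1 to 3. The lowest Cd226-/- share exceeded the highest WT share, and the means differed by 8.18 percentage points (35.0% ± 1.15 in Cd226-/- and 26.8% ± 1.12 in WT, SD, n = 3 each). The exact permutation test gave a two-sided p = 0.1, the smallest it can give with 3 libraries against 3, so this test cannot reach 0.05 here. The share was computed after the 2 rows had been seen to differ.

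Ifi47, an effector-type IRG also known as IRG-47, was not called. It lies at chr11:49076587-49096974 (plus strand), its lower end 19.4 kb from that of Tgtp2. It had 217, 227 and 211 CPM in the Cd226-/- libraries, against 217, 198 and 218 CPM in the WT libraries. The ranges overlapped, with a log2 fold change of 0.05 (SE 0.052, 95% interval -0.06 to 0.16, edgeR adjusted p = 0.528) that was -0.0061 under scaling by library size alone. In GENCODE, 4.49% of its exonic bases (111 of 2473) overlap Olfr56, an olfactory receptor row that fell to 14.0 ± 2.46 CPM in Cd226-/- macrophages, against 19.8 ± 2.90 CPM in WT macrophages (SD, n = 3 each, edgeR adjusted p = 0.00624). Both lie on the same strand there, and a further 4.29% (106 bases) overlap Gm12188 on the other strand. The strand setting of the counting is not given in the sources used here, so reads from these overlaps cannot be told apart.

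**Figure D2:**
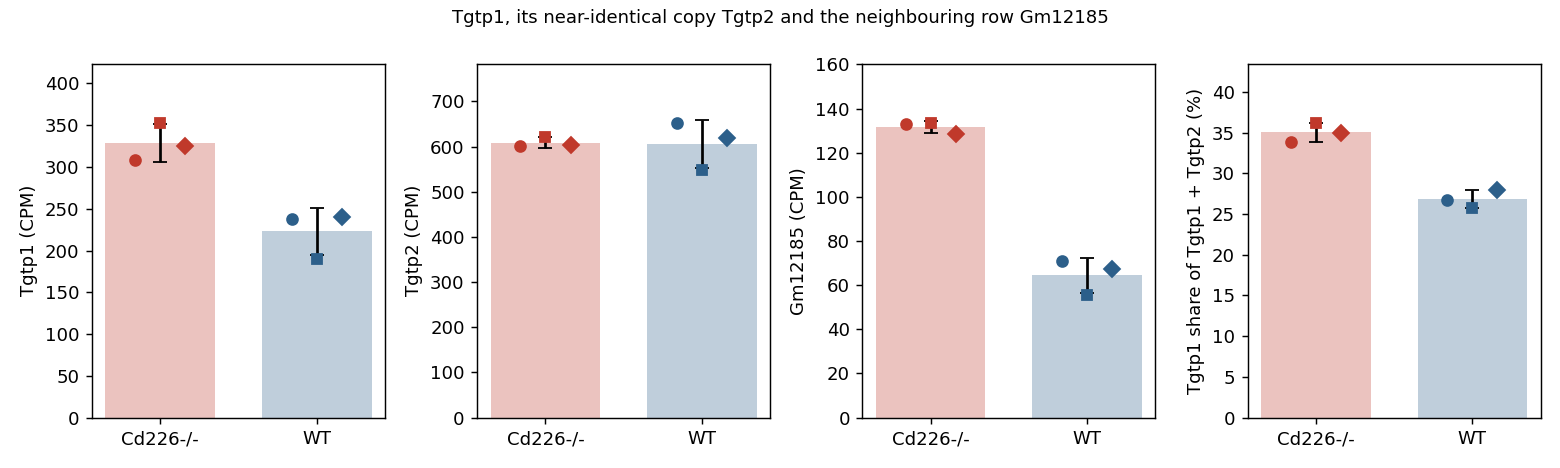
Bars from 0 show means with SD, and points the single libraries (Cd226-/- left, WT right, n = 3 each), for CPM of Tgtp1, Tgtp2 and Gm12185 and, at the right, for Tgtp1 as a percentage of the counts of Tgtp1 plus Tgtp2. Tgtp1 and Gm12185 are apart between genotypes, Tgtp2 overlaps, and the Tgtp1 share is 33.9% to 36.2% in Cd226-/- and 25.8% to 28.0% in WT libraries.

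Gvin1, whose product is a GTPase several times longer than an IRG, was the only member called lower. It lies at chr7:106156556-106215326 (minus strand). It had 65.6, 56.6 and 54.7 CPM in Cd226-/- replicates 1 to 3, against 71.9, 65.8 and 68.7 CPM in WT replicates 1 to 3. All Cd226-/- values were below all WT values, but Cd226-/- replicate 1 nearly touched WT replicate 2. Gvin1 fell by 0.22 on the log2 scale (SE 0.068, 95% interval -0.36 to -0.08, edgeR adjusted p = 0.0158). The call was lost without Cd226-/- replicate 2 (edgeR adjusted p = 0.0686), without Cd226-/- replicate 3 (0.113) and without WT replicate 1 (0.0907). The row shares 98.3% of the 50-base words of its longest transcript with Gm4070, so the counts of these rows are uncertain as well. Gm4070 had 107, 136 and 139 CPM in the Cd226-/- libraries, against 121, 113 and 118 CPM in the WT libraries. These values overlapped (log2 fold change 0.12, edgeR adjusted p = 0.342, and 0.23 with adjusted p = 0.000581 without Cd226-/- replicate 1). With both rows summed, a sum chosen after the data were seen, the edgeR log2 fold change was -5.6e-05 (SE 0.054, adjusted p = 0.999).

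Of the other very large inducible GTPase rows on the list, 5 were tested and 1 was called, higher (20.0%, beside 30.9% of all tested genes). This was Gm17757, which averaged 5.13 ± 0.756 CPM in Cd226-/- macrophages and 2.65 ± 0.537 CPM in WT macrophages (SD, n = 3 each, 1.93-fold, edgeR adjusted p = 0.00189). Gm8995, the most abundant of them, had 1117 ± 44.0 CPM in Cd226-/- and 1090 ± 29.0 CPM in WT macrophages (SD, n = 3 each, edgeR adjusted p = 0.625). Of the 50-base words of its longest transcript, 19.0% occur in other genes. GENCODE lists Gm8995 as a transcribed unprocessed pseudogene, and the tested rows Gm4759 and Gm1966 as unprocessed pseudogenes. Gm17757 had no GENCODE position or length, so its shared words were not computed.

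Levels between genes are compared per length, as CPM per kb of the longest GENCODE M21 transcript, averaged over the 3 libraries of a genotype. In Cd226-/- macrophages the order was Iigp1 (691 CPM per kb), Tgtp2 (217), Irgm1 (129), Ifi47 (123), Tgtp1 (116), Irgm2 (24.9), Igtp (11.1) and Gvin1 (6.55). In WT macrophages it was Iigp1 (621 CPM per kb), Tgtp2 (216), Irgm1 (122), Ifi47 (119), Tgtp1 (79.0), Irgm2 (23.0), Gvin1 (7.64) and Igtp (6.61). The neighbours Irgm1 and Ifi47 overlapped between libraries in both genotypes, as did Igtp and Gvin1. Tgtp1 overlapped Ifi47 in Cd226-/- libraries (109 to 125 for Tgtp1 and 119 to 128 CPM per kb for Ifi47) and lay below it in WT libraries (67.5 to 85.2 for Tgtp1 and 112 to 123 CPM per kb for Ifi47). Over both genotypes Iigp1 ranked 61 among 12440 tested genes with a length, Tgtp2 227, Irgm1 402, Ifi47 417 and Tgtp1 546. Irgm2 ranked 2367, Igtp 5247 and Gvin1 5953. These places rest on counts as deposited, and how reads matching several genes were counted is not given. Of the 50-base words of the longest transcript, 99.2% occur in other genes for Gvin1, 91.4% for Tgtp1 and 90.6% for Tgtp2. For Igtp it was 12.3%. The places of these rows, above all the first 3, are therefore uncertain as levels of expression.

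Outside the 8 members the table held 9 further IRG rows, named here by the deposited symbols with RefSeq synonyms. Of 8 tested, 1 was higher and 4 were lower in Cd226-/- macrophages, and the genotypes did not overlap for 5. That is 62.5% called, beside 30.9% of all tested genes, and 5 of 8 without overlap, beside 44.4%. The higher row was Gm12185 (Irgb2b1), an uncharacterised IRGB gene at chr11:48904656-48992226 (minus strand). It had 133, 134 and 129 CPM in Cd226-/- replicates 1 to 3, against 70.8, 55.5 and 67.2 CPM in WT replicates 1 to 3. Each Cd226-/- library was far above each WT library. Gm12185 was 2.04-fold higher in Cd226-/- macrophages (log2 fold change 1.03, SE 0.070, edgeR adjusted p = 3.87e-09), a larger estimate than that of any of the 8 members, and 0.93 to 1.10 on the log2 scale with each library left out. In GENCODE its extent runs over Tgtp1, and 6.96% of the exonic bases of Tgtp1 (223 of 3205) overlap its exons, while the RefSeq start used for its promoter window lies between Gm5431 and Tgtp1. Summing Tgtp1, Tgtp2 and Gm12185, chosen after the data were seen, gave a log2 fold change of 0.26 (SE 0.061, edgeR adjusted p = 0.00300).

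The chromosome 11 cluster, in which the lower ends of Irgm1 and Ifi47 are 215 kb apart, held rows called in both directions and rows with no call. Besides Gm12185 and Tgtp1, which were higher, Gm5431 (Irgb9b8) was lower. Gm5431 had 103, 96.5 and 94.3 CPM in Cd226-/- replicates 1 to 3, against 110, 107 and 110 CPM in WT replicates 1 to 3. It fell by 0.16 on the log2 scale (edgeR adjusted p = 0.0241), and the call was lost without Cd226-/- replicate 2 (0.0843), Cd226-/- replicate 3 (0.129), WT replicate 1 (0.0779) or WT replicate 3 (0.0716). The genotypes did not overlap for it, and 47.6% of the 50-base words of its longest transcript occur in other genes. The rows 9930111J21Rik1 (log2 fold change -0.02, edgeR adjusted p = 0.901) and 9930111J21Rik2 (Irgb5; 0.75, edgeR adjusted p = 0.211) were not called, the second at 7 to 25 counts a library. Gm12250 (Irgb10), known in mouse cells for breaking bacterial membranes, lies near Igtp and Irgm2. It had 62, 132 and 158 counts in Cd226-/- replicates 1 to 3, against 76, 66 and 125 counts in WT replicates 1 to 3. Like Igtp, it was low in Cd226-/- replicate 1, and it was called without that library (log2 fold change 0.53 with all libraries, edgeR adjusted p = 0.264, and 0.84 with adjusted p = 0.000604 without it). Irgc1, a testis-expressed relative, had 0, 1 and 1 counts in Cd226-/- libraries and 0, 2 and 0 in WT libraries and was not tested.

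**Figure D3:**
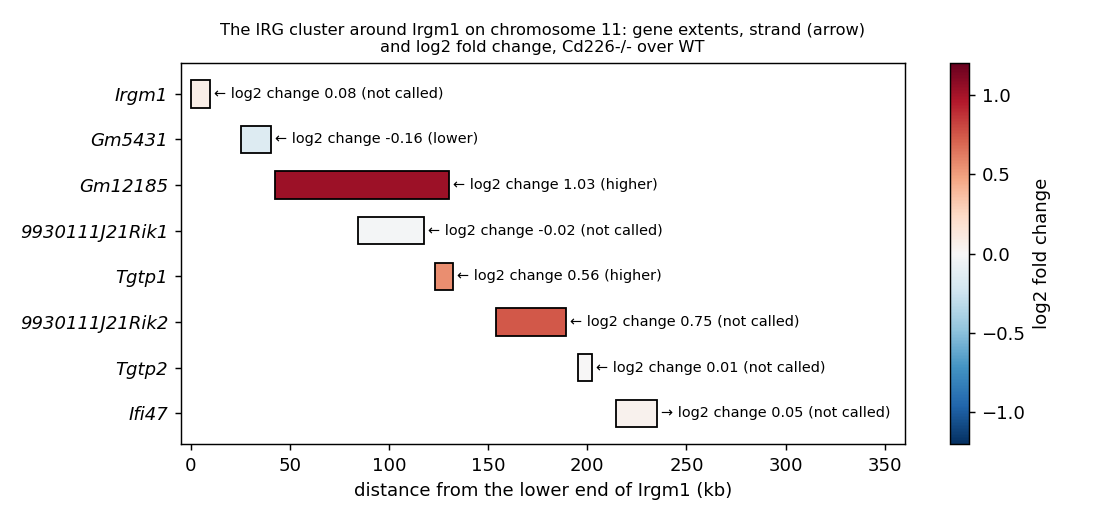
Extents of the IRG rows of the chromosome 11 cluster (horizontal axis, distance in kb from the lower end of Irgm1), with the strand as an arrow and the log2 fold change of Cd226-/- over WT as colour and text. Gm12185 (1.03) and Tgtp1 (0.56) are called higher, Gm5431 (-0.16) is called lower, and Irgm1, 9930111J21Rik1, 9930111J21Rik2, Tgtp2 and Ifi47 are not called.

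The 3 IRG rows next to Iigp1 on chromosome 18 were all lower in Cd226-/- macrophages, while Iigp1 was not called. F830016B08Rik (Ifgga4) had 48.3, 42.7 and 45.8 CPM in Cd226-/- replicates 1 to 3, against 86.9, 81.3 and 90.4 CPM in WT replicates 1 to 3. Gm4951 (Ifgga2) had 124, 115 and 112 CPM in the Cd226-/- libraries, against 193, 160 and 206 CPM in the WT libraries. In both rows all Cd226-/- libraries were well below all WT libraries. F830016B08Rik fell by 0.92 on the log2 scale (SE 0.064, edgeR adjusted p = 3.97e-10) and Gm4951 fell by 0.67 (SE 0.081, edgeR adjusted p = 5.85e-05). Gm4841 (Ifgga3) had 45.7, 42.9 and 45.1 CPM in the Cd226-/- libraries, against 56.8, 46.5 and 58.2 CPM in the WT libraries, with no overlap. It fell by 0.27 (edgeR adjusted p = 0.00946), a call that was lost without WT replicate 1 (0.0628) or WT replicate 3 (0.0715). Together these 3 rows held 9.51%, 8.36% and 8.48% of the counts of the 4-gene cluster with Iigp1 in Cd226-/- libraries, against 14.4%, 14.6% and 14.3% in WT libraries. The exact permutation test of that share gave a two-sided p = 0.1, the smallest possible, and the share was chosen after the rows had been seen. F830016B08Rik starts 82.7 kb and Gm4951 164 kb from the start of Iigp1. Between 1.75% (F830016B08Rik) and 10.4% (Gm4841) of the 50-base words of their longest transcripts occur in other genes.

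**Figure D4:**
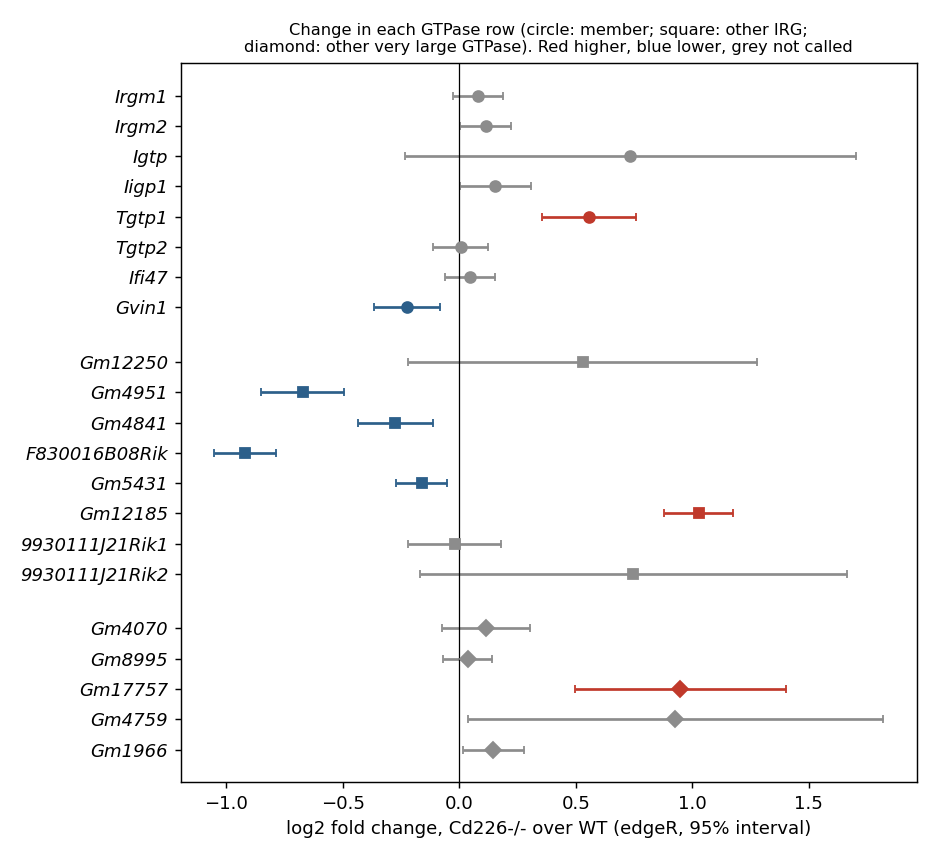
Log2 fold change of Cd226-/- over WT with its 95% interval (horizontal axis, edgeR) for the 8 members (circles, top), the 8 other tested IRG rows (squares) and the 5 other tested very large GTPase rows (diamonds), coloured red where higher, blue where lower and grey where not called. Only Tgtp1, Gm12185 and Gm17757 lie to the right as calls, while Gvin1, Gm4951, Gm4841, F830016B08Rik and Gm5431 lie to the left, and the widest member interval is that of Igtp (-0.23 to 1.70).

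Across libraries the members shared a low value in WT replicate 2. It was the lowest WT library for 7 of the 8 members and for 11 of the 11 guanylate-binding protein rows, against 34.6% of all tested genes. Averaged over the members, log2 CPM minus each gene's own mean was 0.01, 0.17 and 0.09 in Cd226-/- replicates 1 to 3, against -0.03, -0.24 and -0.0030 in WT replicates 1 to 3. In this average Cd226-/- replicate 2 was thus the highest library and WT replicate 2 the lowest, and Cd226-/- replicate 1 was close to WT replicate 3. The value of Cd226-/- replicate 1 rests largely on Igtp, which stood at -0.33 there, while the other members stood at -0.015 to 0.19. Iigp1 followed the average most closely (root mean square difference 0.040 on the log2 scale). Igtp (0.41), Gvin1 (0.24) and Tgtp1 (0.20) departed most from it. Among 3674 other genes of at least 50 CPM on average, the 5 profiles nearest to the members' average over the 6 libraries were those of Tbc1d2b (0.032), Brip1os (0.032), Apobec3 (0.036), Tarm1 (0.037) and Wdr37 (0.039). Tbc1d2b is a Rab GTPase-activating protein, Apobec3 a cytidine deaminase that restricts retroviruses, and Tarm1 an activating receptor of myeloid cells. The nearest of them, Tbc1d2b, had 149, 160 and 156 CPM in Cd226-/- replicates 1 to 3, against 140, 129 and 143 CPM in WT replicates 1 to 3.

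**Figure D5:**
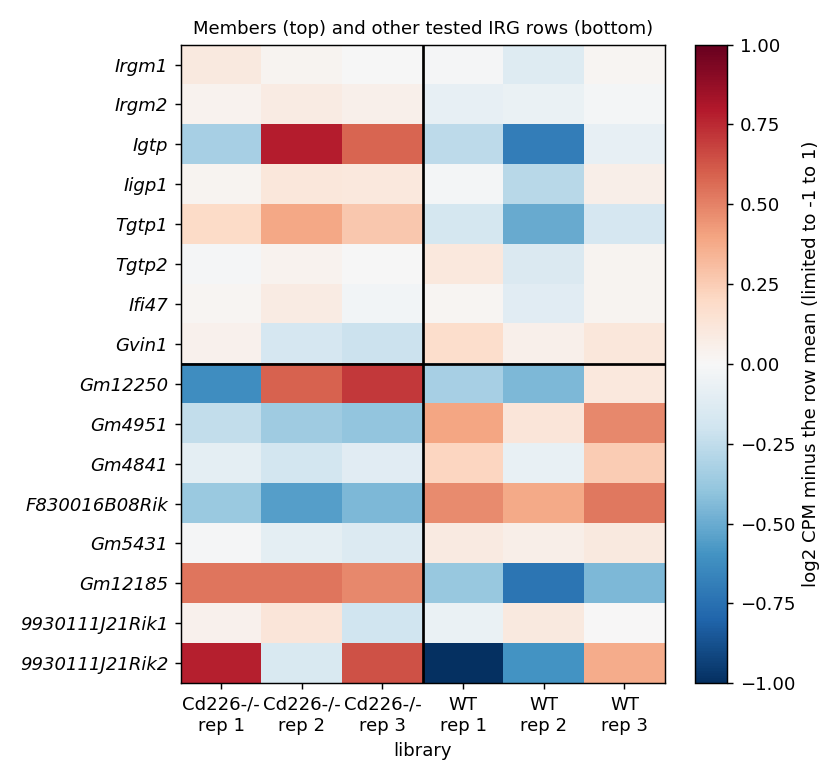
Log2 CPM minus the row mean (colour, limited to -1 to 1) of the 8 members (above the line) and the 8 other tested IRG rows (below it) in the Cd226-/- libraries (left) and the WT libraries (right). Irgm1, Iigp1, Tgtp2 and Ifi47 are pale with their lowest value in WT replicate 2, Igtp and Gm12250 are low in Cd226-/- replicate 1, and Gm12185 and F830016B08Rik divide by genotype in opposite directions.

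Most listed genes of IFN-γ signalling were called, and whether each acts upstream of the IRGs was not tested. Of 16 listed genes, all tested, 11 were higher and 1 was lower in Cd226-/- macrophages (75.0%, beside 30.9% of all tested genes), with a median log2 fold change of 0.24. Irf8, a myeloid transcription factor that acts with IRF1, averaged 346 ± 20.2 CPM in Cd226-/- and 224 ± 16.8 CPM in WT macrophages (SD, n = 3 each, 1.55-fold, edgeR adjusted p = 4.24e-08). Jak2, a kinase of the IFN-γ receptor, averaged 578 ± 49.3 CPM in Cd226-/- and 404 ± 4.20 CPM in WT macrophages (1.43-fold, n = 3 each, edgeR adjusted p = 3.40e-07). Socs3, a feedback inhibitor of JAK signalling, was 1.39-fold higher (edgeR adjusted p = 1.01e-06). Ifngr2, Jak1, Stat2, Irf1, Socs1, Ptpn2, Nlrc5 and Ciita were also higher, and Irf9 was lower. These members include kinases and activators as well as the inhibitors Socs1, Socs3 and Ptpn2. Irf1, which binds ISRE sequences, was 1.23-fold higher (edgeR adjusted p = 0.000205). Ifng itself, the cytokine gene, stood at 8.84 ± 1.61 CPM in Cd226-/- and 10.3 ± 1.07 CPM in WT macrophages (SD, n = 3 each, edgeR adjusted p = 0.262).

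The guanylate-binding proteins, the other large family of IFN-γ-induced GTPases, were mostly not called. Of 11 tested, 1 was higher (9.09% called, beside 30.9% of all tested genes), with a median log2 fold change of -0.0018. The one was Gbp10, with 83.0, 89.2 and 79.6 CPM in Cd226-/- replicates 1 to 3, against 59.7, 40.6 and 59.7 CPM in WT replicates 1 to 3. The genotypes did not overlap for Gbp10 (log2 fold change 0.65, SE 0.16, edgeR adjusted p = 0.0311), a row with close copies in the family.

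Of 15 genes listed for the loading of IRGs onto vacuoles, 1 was higher (Traf6) and 5 were lower (Atg7, Map1lc3b, Gabarapl1, Gabarapl2 and Sqstm1), with a median log2 fold change of -0.04 (40.0% called, near the 30.9% of all tested genes). Traf6, a ubiquitin ligase brought to parasite vacuoles, was 1.22-fold higher (edgeR adjusted p = 0.00112). Sqstm1, the ubiquitin-binding adaptor p62, fell to 998 ± 23.6 CPM in Cd226-/- macrophages, against 1348 ± 32.4 CPM in WT macrophages (SD, n = 3 each, log2 fold change -0.43, edgeR adjusted p = 5.35e-07). Gabarapl1, one of the ATG8 proteins needed for IRG loading, fell to 97.3 ± 2.01 CPM in Cd226-/- macrophages, against 131 ± 3.32 CPM in WT macrophages (SD, n = 3 each, edgeR adjusted p = 9.30e-07). Its relative Gabarap had 14.6, 31.6 and 33.9 CPM in Cd226-/- replicates 1 to 3, against 12.8, 11.7 and 11.8 CPM in WT replicates 1 to 3. It was higher in every Cd226-/- library but was not called (log2 fold change 1.14, edgeR adjusted p = 0.0904), with Cd226-/- replicate 1 again close to WT, as for Igtp and Gm12250.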

How the data were processed

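RNA of 6 macrophage libraries (3 Cd226-/- and 3 WT) was sequenced. The authors deposited 1 table of whole-number counts per gene symbol. Reads were aligned with HISAT2 to GRCm38, per the submitters' processing notes. Which HISAT2 version, gene models, read counter and strandedness were used is not stated in the labels. Counts were taken as deposited. Genes were filtered with filterByExpr and tested with edgeR 4.0.16 (R 4.3.3; TMM scaling, quasi-likelihood test, Cd226-/- over WT, no covariate, all 13215 genes adjusted together by Benjamini-Hochberg, threshold 0.05). CPM were computed from these counts with TMM library sizes, and log2 values from CPM plus 0.01. Positions, lengths and shared words came from GENCODE M21 (73.7% of row symbols matched) and promoters from RefSeq (90.0% matched). The fit was tested on simulated data.

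The members and gene lists were chosen with earlier results of these data known. Named genes were all members and every counted IRG row. Of each other list they were up to 3 called genes with the smallest p, or else the 2 most abundant, plus the 5 nearest profiles. Cd226, Gm4070, Gm8995, Olfr56, Irf1, Gabarap and genes given only as names in a count were added after their values were seen. Alternatives were DESeq2 1.42.0 (size factors, Wald test), limma-voom (limma 3.58.1), library-size scaling, other filters, a replicate block, leaving out each library, and summed rows.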

Additional observations from a re-analysis of the deposited data

How the results depend on the processing

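Of 111 member values under alternatives, 99 kept their side of the threshold, 4 lost the call, 8 gained it and 0 changed a called sign. These values include the summed rows, each counted for every member in the sum. Every gain of Irgm2 and Tgtp2, a gain of Igtp and a loss of Gvin1 came from such sums. On their own rows Irgm2 and Tgtp2 were never called. Uncalled values near 0 turned negative in 4 alternatives for Tgtp2 (down to -0.06, without WT replicate 2) and 1 for Ifi47. Members called, 2 with all libraries, were 1 to 3 with each library left out in turn: 1 without Cd226-/- replicate 2, Cd226-/- replicate 3 or WT replicate 1, each time through the loss of Gvin1. They were 3 with limma-voom (Igtp added) and 3 without the low-count filter (Iigp1 added). All genes called were 3263 to 4379 with each library left out, against 4086. Scaling by library size alone gave 1773 higher and 2764 lower genes, against 2130 higher and 1956 lower with TMM, and moved the median log2 fold change of all genes to -0.058. Replicate numbers appear in both genotypes and are not said to pair libraries. Deviations of same-numbered libraries from their genotype means correlated at 0.070, 0.004 and 0.004, against -0.053 to 0.046 for different numbers. No clear pairing was seen, but this check cannot tell whether same-numbered libraries were handled together. With the number as a replicate block, 2 members and 4137 genes were called. With 3 libraries a genotype, changes such as that of Irgm2 (log2 0.11) lay at the limit of what could be called. For Tgtp1, Tgtp2 and Gvin1 the unknown division of reads between copies is a further limit.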
